A study of Mus musculus with 6 samples.

Results

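The nuclear-encoded subunits of the respiratory chain and of ATP synthase were taken from the count table by their symbols, which begin with Nduf (followed by a, b, c, s or v and a number), Uqcr, Cox4 to Cox8 or Atp5, or read Sdha, Sdhb, Sdhc or Sdhd. Of 56941 genes in the table, 83 met this rule, and 7 rows marked -ps as pseudogenes were left out. All 83 were among the 32149 genes kept by the filter on low counts. RNA had been sequenced from FACS sorted hair follicle stem cells (HFSCs, CD34+/α6-integrin+) of dorsal skin from female mice at postnatal day 68, with 3 libraries per genotype. The mice labelled WT were K14CreER-/- Dab2fl/fl and the mice labelled Dab2-cKO were K14CreER+/- Dab2fl/fl, so the floxed Dab2 alleles, the B6;129S4-Dab2tm1Cpr/J strain and tamoxifen (75 mg/kg on 5 consecutive days) were common to both. CreER is a Cre recombinase that enters the nucleus on tamoxifen, and the K14 promoter drives it in basal cells of skin epithelium and not in dermal cells.

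The respiratory chain lies in the inner mitochondrial membrane. Complex I (NADH dehydrogenase) and complex II (succinate dehydrogenase) pass electrons to ubiquinone, complex III passes them to cytochrome c, and complex IV (cytochrome c oxidase) passes them to oxygen, while complex V (ATP synthase) uses the proton gradient built by complexes I, III and IV. The nuclear genes encode all of complex II and most subunits of the others, and several complex IV subunits exist as a widely expressed form and a form restricted to tissues such as heart and skeletal muscle, testis or lung. Quiescent HFSCs are known for relying on glycolysis more than on respiration.

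The targeted gene Dab2 was higher, not lower, under the Dab2-cKO label, with 338, 332 and 309 normalized counts in the WT libraries and 1434, 1300 and 1390 in the others (log2 fold change 2.08 ± 0.08 (SE), edgeR adjusted p = 3.04e-34). Counts per gene do not separate full-length from deleted transcripts, so Dab2 goes against the label without showing which library is which, and every direction given here is that of the libraries labelled Dab2-cKO, below called Dab2-cKO, against those labelled WT. The 6 libraries held 7040032 to 11696457 counts. The cell type markers also separated the groups. As a background for the counts that follow, 16.8% of all genes tested were called higher and 11.5% lower. Among genes with a mean count of at least 50 these shares were 30.1% and 27.4%. The 16 skeletal muscle markers summed to 31855 to 37175 normalized counts in WT and 176358 to 180230 in Dab2-cKO (14 of 16 higher), and the 10 fibroblast markers to 106380 to 128616 and 371132 to 391003 (10 of 10 higher). The 22 markers of hair shaft, inner root sheath and matrix summed to 264087 to 316889 in WT and 3569 to 3667 in Dab2-cKO (22 of 22 lower), and the 20 proliferation markers to 14727 to 15989 and 4982 to 5125 (20 of 20 lower). The 15 bulge HFSC markers summed to 24032 to 27505 in WT and 41795 to 42886 in Dab2-cKO (10 higher, 3 lower). The 3 that were lower were Sox9, Lhx2 and Lgr5, with log2 fold changes of -1.45, -1.43 and -1.32. Both genes of the sort were present, Cd34 at 455 to 562 and 1755 to 1820 and Itga6 at 928 to 1007 and 1377 to 1464. Of the other lists, 10 of 10 sebaceous gland, 10 of 10 endothelial, 10 of 12 immune and 7 of 10 adipocyte markers were higher (1 adipocyte marker lower), as were 6 of 10 interfollicular epidermis markers (2 lower), and 9 of 10 melanocyte markers were lower. In bulk samples fewer cells of a type and less RNA per cell cannot be told apart, and the part of these shifts in the subunit levels was not tested beyond the values given below.

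The promoters of the muscle and the widely expressed forms of 2 complex IV subunits are shown because the muscle forms Cox8b and Cox7a1 were among the members with the largest changes, and 3 further promoters are shown for their matches to NRF1, a regulator known for respiratory genes. Each sequence holds the 150 bases before the RefSeq start of the gene, read 5′ to 3′ on the gene's strand, in the GRCm38.p6 build of the promoter table (counts were made on GRCm39). Capitals mark motif matches on either strand, namely CAGCTG (E-box), GCGCA and GCGC with 1 base between (NRF1), AAGGTCA (bound by the estrogen-related receptors) and CCGGAAG (ETS, the family of GABP). The Cox8b window held an E-box from 19 to 14 bases before the start, and the windows of Cox8a, Cox7a1 and Cox7a2 held none of these letters.
Cox8b (chr7:140900447-140900596, minus strand): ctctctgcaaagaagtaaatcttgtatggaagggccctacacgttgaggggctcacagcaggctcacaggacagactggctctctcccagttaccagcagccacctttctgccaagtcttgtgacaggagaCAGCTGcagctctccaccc
Cox8a (chr19:7217617-7217766, minus strand): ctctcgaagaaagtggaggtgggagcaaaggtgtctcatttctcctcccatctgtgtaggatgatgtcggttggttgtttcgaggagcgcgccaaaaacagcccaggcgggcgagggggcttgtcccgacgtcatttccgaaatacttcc
Cox7a1 (chr7:30184021-30184170, plus strand): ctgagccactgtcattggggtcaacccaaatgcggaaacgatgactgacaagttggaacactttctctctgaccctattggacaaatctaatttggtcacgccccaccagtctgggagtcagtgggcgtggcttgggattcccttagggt
Cox7a2 (chr9:79759854-79760003, minus strand): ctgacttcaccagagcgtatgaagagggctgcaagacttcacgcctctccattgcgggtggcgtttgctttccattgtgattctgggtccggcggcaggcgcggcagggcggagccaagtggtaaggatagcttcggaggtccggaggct
Atp5k (chr5:108434400-108434549, minus strand): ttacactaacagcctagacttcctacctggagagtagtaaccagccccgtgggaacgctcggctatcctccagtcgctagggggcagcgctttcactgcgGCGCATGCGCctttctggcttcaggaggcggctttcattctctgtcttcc
Ndufb4 (chr16:37654369-37654518, minus strand): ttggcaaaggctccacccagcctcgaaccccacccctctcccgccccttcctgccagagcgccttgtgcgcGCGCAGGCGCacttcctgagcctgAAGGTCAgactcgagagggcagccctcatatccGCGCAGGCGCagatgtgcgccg
Sdhd (chr9:50603850-50603999, minus strand): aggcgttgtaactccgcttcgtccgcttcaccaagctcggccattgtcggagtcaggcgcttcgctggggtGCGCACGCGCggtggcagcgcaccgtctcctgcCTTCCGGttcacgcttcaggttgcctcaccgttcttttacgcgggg

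Promoters matched 66 of the 83 members. In the 250 bases before the start, the NRF1 motif was found in 13 of 66 members (19.7%) and in 4.23% of 27025 genes in the promoter table. A gene with several promoters was counted if any of them held the motif. The ETS motif was found in 12 members (18.2%) and in 7.83% of all these genes, and Atp5h, Cox6a1 and Sdhd held both. The E-box was found in 6 members (9.09%, against 14.7% of all these genes) and AAGGTCA in 5 (7.58%, against 4.70%). Members with the NRF1 motif had a median log2 fold change of 0.57 and those without it also 0.57. The holders ranged from Atp5k, at 0.90, to Cox6a1, at 0.01, so the motif did not sort the members by their change.

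The question of the comparison was how gene expression of HFSCs differs between the genotypes at PD68. Markers of other cell types, such as skeletal muscle and fibroblasts, had high summed counts in both groups. The changes given here are therefore those of the sorted samples and cannot be assigned to HFSCs alone. Of the 83 subunits, 68 were higher in the libraries labelled Dab2-cKO and 0 were lower, and 15 did not pass the test (edgeR quasi-likelihood test, adjusted p under 0.05). At an unadjusted p under 0.05 and with DESeq2 the number lower was also 0. The background was 16.8% of all 32149 genes called higher and 11.5% called lower. Among genes with a mean count of at least 50, 64 of 77 members were higher and none lower, beside 30.1% and 27.4% of such genes. The median log2 fold change was 0.57 over the members and -0.02 over all genes. The libraries did not overlap for 68 members, all of them with every Dab2-cKO library above every WT library, as for 20.6% of all genes. A change of more than 1.5-fold was estimated for 39 called members, and a test against 1.5-fold called 17 (6.91% of all genes). The summed normalized counts of the members were 31151 to 36254 in WT and 48599 to 49669 in Dab2-cKO, or 1.46 times as high. They made up 0.397% to 0.424% of all counts in WT and 0.436% to 0.460% in Dab2-cKO, so on the scale of total counts the 2 ranges lay close together but apart.

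Scaling set the size of these changes. TMM factors were 1.11 to 1.21 in WT and 0.847 to 0.876 in Dab2-cKO. With the total count as the only scale, the median of all genes moved by -0.43 and that of the members fell to 0.15, and 30 members were called higher and 8 lower (Ndufs1, Ndufv1, Ndufb2, Sdhb, Uqcrc2, Cox6a1, Atp5a1 and Atp5b), beside 8.35% and 34.7% of all genes. The sign of 22 members turned under that scale, 10 of them called higher with TMM. With upper-quartile scaling the median of all genes moved by -0.14, and 60 members were higher and none lower. A scaling factor moves every gene of a library by the same amount, so the distance between the median of the members and that of all genes cannot change much with it. Over the filters, models and left-out libraries tried, that distance was 0.52 to 0.64.

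Some reads cannot be assigned to the subunits with certainty. Exons of genes on the other strand overlap more than 20% of the exon bases of 13 members, and whether counting used strand is not given in the sources used here. Sequence at least 95% identical to at least 50% of the transcript lies elsewhere in the genome for 13 members, from 1 place for Cox8a, Cox7a2l, Atp5g1 and Atp5k to 10 places for Atp5l. The widest overlaps with the other strand were those of Ndufb11 (67.8%), Ndufa4l2 (63.3%) and Ndufa3 (62.5%), while those of Cox5a, Uqcrc2 and Atp5b were 41.4%, 29.7% and 23.1%. Opposite members with over 20% overlap, Jam2 (Atp5j) and Gamt (Ndufs7) were called higher, Shmt2 (Ndufa4l2) lower and the other genes neither. Jam2 and Gabpa overlap 29.6% of the exon bases of Atp5j, and Jam2 had means of 153.8 normalized counts in WT and 467.8 in Dab2-cKO. Gamt overlaps 49.4% of those of Ndufs7, with means of 23.3 and 55.2. Atp5j and Ndufs7 were themselves called higher. The part of reads from the other strand in the members was not tested.

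**Figure D1:**
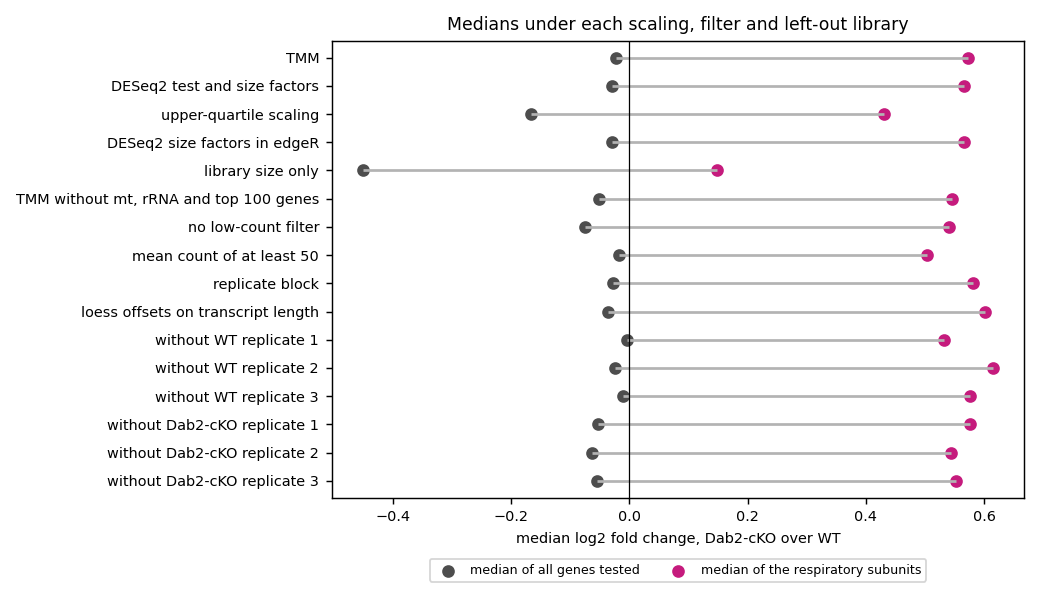
Median log2 fold change (Dab2-cKO against WT) for the 83 respiratory subunits (magenta) and for all genes tested (grey), under each scaling, filter, model and left-out library. Both medians shift together under a scaling, by construction, to 0.15 and -0.45 with library size only, and the distance between them was 0.52 to 0.64.

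Complex I takes electrons from NADH, and 35 of its subunits were measured. Of these, 29 were higher and none lower, with a median log2 fold change of 0.61 and a range of -0.08 to 1.14, while total-count scaling left 13 higher and 3 lower with a median of 0.18. The 28 accessory subunits, which surround the core and help its assembly and stability, included 24 that were higher (median 0.66). The 7 core subunits, which carry the flavin, the iron-sulfur clusters and the ubiquinone site, included 5 that were higher (median 0.49). Summed over the complex, normalized counts were 8885 to 10118 in WT and 14082 to 14486 in Dab2-cKO.

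The largest change within complex I was that of Ndufb9, an accessory subunit of the membrane arm (GRCm39 chr15:58805594-58814819, plus strand). It had 105, 130 and 129 normalized counts in the WT libraries and 240, 323 and 244 in the Dab2-cKO libraries. The groups stood well apart, and the log2 fold change was 1.14 ± 0.13 (adjusted p = 4.16e-11). Exons of Mtss1 and Tatdn1 on the other strand overlap 28.7% of its exon bases, and neither of these genes was called (log2 fold changes -0.16 and -0.08). Ndufb3, another membrane arm subunit, had 70.1, 93.0 and 81.2 in WT and 164, 179 and 155 in Dab2-cKO (1.02 ± 0.16, adjusted p = 1.49e-07). Its lowest Dab2-cKO library lay above the highest WT library. Per kb of transcript, Ndufa6, an accessory subunit of the LYR protein family, had the highest level of the complex, 602 normalized counts per kb in WT and 1091 in Dab2-cKO. Its libraries held 326, 384 and 356 normalized counts in WT and 635, 641 and 654 in Dab2-cKO, with a log2 fold change of 0.85 ± 0.09 (adjusted p = 4.69e-13), and 25.6% of its exon bases overlap genes on the other strand.

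Of the core subunits at the NADH end, Ndufv1 and Ndufs1 were not called while Ndufv2 rose by 0.61 ± 0.08. Ndufv1, which binds the flavin, had 483, 543 and 552 normalized counts in WT and 546, 631 and 566 in Dab2-cKO, so that the groups overlapped. Its log2 fold change of 0.14 ± 0.09 was not called (adjusted p = 0.253), and its sign turned with total-count scaling (-0.29) and upper-quartile scaling (-0.00339). Ndufs1, the largest iron-sulfur subunit, had 618, 660 and 662 in WT and 707, 723 and 787 in Dab2-cKO. The libraries did not overlap, yet 0.19 ± 0.08 missed the threshold (adjusted p = 0.0610) and turned to -0.24 with total-count scaling. The other members of complex I that were not called were Ndufa7, Ndufa9, Ndufb8 and Ndufb2, with log2 fold changes from -0.08 to 0.29.

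**Figure D2:**
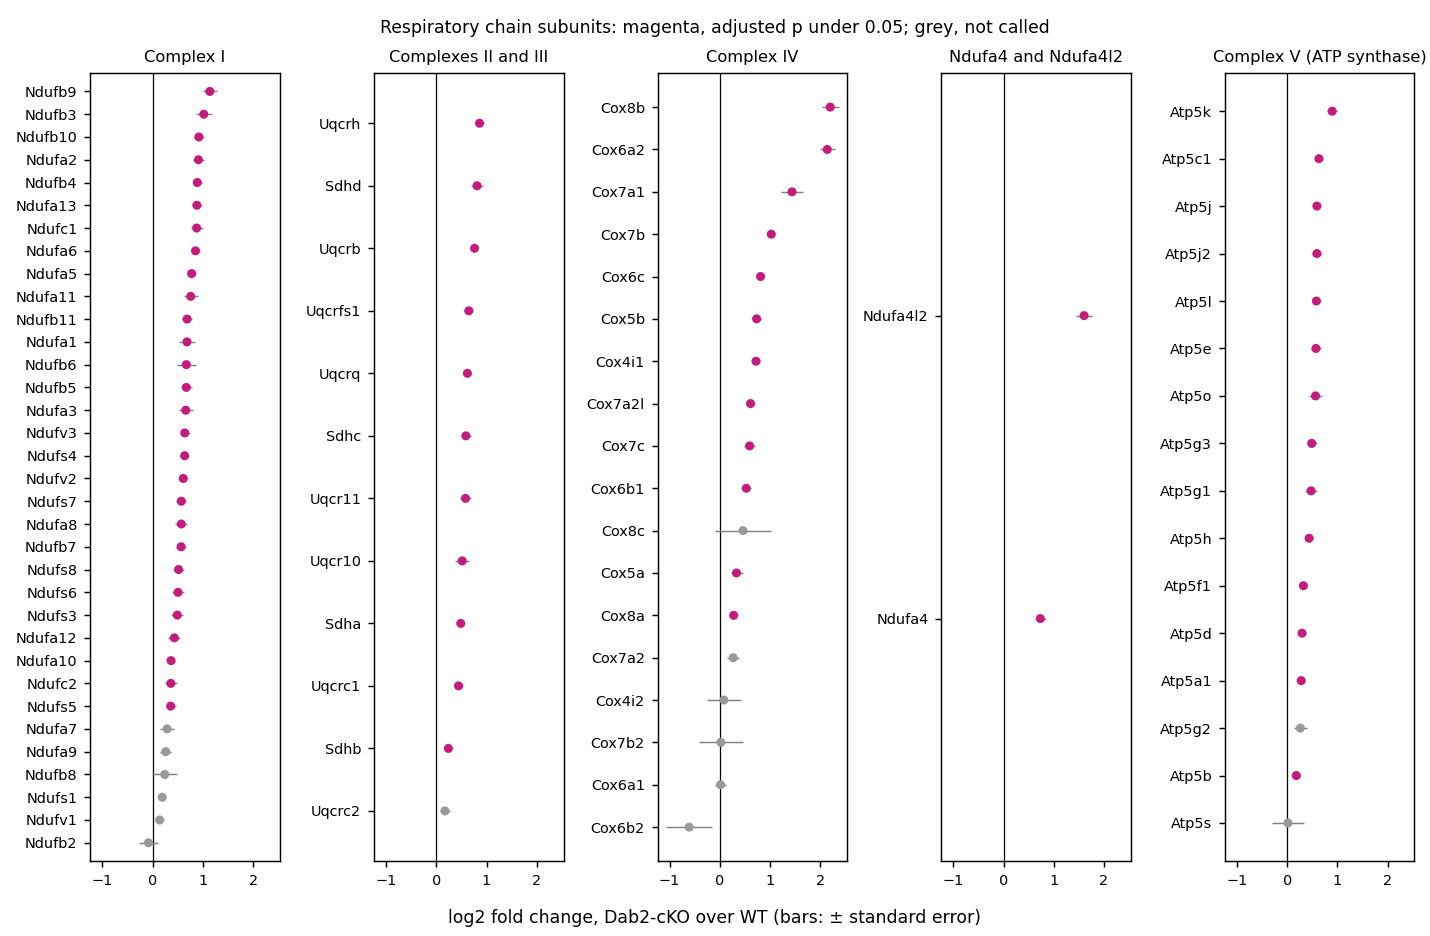
Log2 fold change between Dab2-cKO and WT, positive where Dab2-cKO was higher (TMM scaling, edgeR) with its standard error for 82 of the 83 subunits, by complex. Magenta points had an adjusted p under 0.05 (67 of those drawn, all higher) and grey points did not, and 22 of the members with positive values turn negative when only total counts are used for scaling.

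Complex II links the citric acid cycle to the chain, and all 4 of its subunits were higher (median 0.54, or 0.11 with total-count scaling, where Sdhb was lower). Sdhd, a membrane anchor, had 174, 190 and 166 normalized counts in WT and 293, 298 and 339 in Dab2-cKO (0.81 ± 0.12, adjusted p = 1.67e-08). Its promoter is printed above, with an NRF1 match from 79 to 70 and an ETS match from 46 to 40 bases before the start. Sdha, the flavoprotein that oxidises succinate, had the highest level per kb of the complex and went from 805, 958 and 969 to 1297, 1248 and 1290 (0.49 ± 0.07, adjusted p = 9.85e-08). Sdhb, the iron-sulfur subunit, had 468, 534 and 474 in WT and 595, 596 and 554 in Dab2-cKO. The ranges did not overlap, but the rise of 0.24 ± 0.09 (adjusted p = 0.0243) turned to -0.18 with total-count scaling. The other anchor, Sdhc, had a log2 fold change of 0.59.

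Complex III, the cytochrome bc1 complex, had 7 of 8 subunits higher (median 0.60, or 0.17 with total-count scaling, where 4 were higher and 1 lower). The small subunits Uqcrh, known as the hinge protein, and Uqcrb had log2 fold changes of 0.86 and 0.76. Uqcrb had the highest level per kb, with 600, 620 and 535 normalized counts in WT and 955, 1008 and 1014 in Dab2-cKO (adjusted p = 2.61e-13). Near-identical sequence lies at 3 other places of the genome, so its reads may be shared. Uqcrfs1, the Rieske iron-sulfur protein and a catalytic subunit, went from 376, 412 and 430 to 664, 606 and 640 (0.65 ± 0.09, adjusted p = 2.49e-09). Every Dab2-cKO library exceeded every WT library. Uqcrc1, a core subunit, went from 393, 587 and 497 to 672, 629 and 714 (0.44 ± 0.09, adjusted p = 6.22e-05). Its partner Uqcrc2 was not called (0.17 ± 0.09, adjusted p = 0.178) and was called lower with total-count scaling.

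Complex IV held the widest spread, from -0.61 to 2.195. Of its 18 subunits and isoforms 12 were higher and none lower, with a median of 0.56 (0.13 with total-count scaling, where 7 were higher and 1 lower). The 3 forms known from heart and skeletal muscle were all higher (median 2.14), 8 of the 10 widely expressed subunits were higher (median 0.56), and none of the 3 testis forms or the lung form Cox4i2 was called. The catalytic subunits of this complex are encoded in mitochondrial DNA.

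Cox8b, the muscle form of the small subunit 8 (GRCm39 chr7:140477069-140480359, minus strand), had 46.8, 47.8 and 54.7 normalized counts in WT and 186, 272 and 233 in Dab2-cKO. The lowest Dab2-cKO library lay far above the highest WT library, and the log2 fold change of 2.195 ± 0.17 (adjusted p = 6.57e-19) was the largest of all members. Its WT level was low, at 23.2 normalized counts per kb against 107 in Dab2-cKO. The background defined below from chemosensory receptor genes was 15.3 per kb. Psmd13 on the other strand overlaps 51.5% of its exon bases and had a log2 fold change of -0.10, which was not called. Cox6a2, the muscle form of subunit 6a (GRCm39 chr7:127804607-127805559, minus strand), had 60.1, 59.6 and 56.4 in WT and 236, 283 and 256 in Dab2-cKO (2.14 ± 0.15, adjusted p = 2.47e-20). Both groups were narrow and distant from each other. Cox7a1, the muscle form of subunit 7a (GRCm39 chr7:29883569-29885503, plus strand), had 37.9, 34.3 and 42.7 in WT and 94.4, 129 and 89.4 in Dab2-cKO (1.43 ± 0.22, adjusted p = 7.09e-08). The skeletal muscle markers of the same libraries had a median log2 fold change of 2.45, and among them Ckm, the muscle creatine kinase, rose by 2.42 and Mb, myoglobin, by 2.65. Other lists were higher too, such as the adipocyte markers (median 1.47, 7 of 10 higher and 1 lower). The part of any list in the levels of these forms was not tested. Without Cox8b, Cox6a2, Cox7a1 and Ndufa4l2, a choice made after seeing the data, 64 of the remaining 79 members were higher, beside 16.8% of all genes. Their median was again 0.57. Leaving out so few members could hardly move a median, and the part of muscle RNA in the other members was not tested.

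The widely expressed partners moved less. Cox6a1 had 233, 294 and 299 normalized counts in WT and 252, 284 and 304 in Dab2-cKO, with full overlap. Its log2 fold change of 0.01 ± 0.11 (adjusted p = 0.952) turned negative under several alternatives and reached -0.41 with total-count scaling. Cox8a had 381, 425 and 332 in WT and 465, 464 and 447 in Dab2-cKO, and Cox7a2 had 190, 208 and 236 in WT and 280, 216 and 266 in Dab2-cKO. Cox8a was called higher (0.27 ± 0.10, adjusted p = 0.0213) and Cox7a2 was not (0.27 ± 0.12, adjusted p = 0.0943), though leaving out WT replicate 3 or Dab2-cKO replicate 2 brought Cox7a2 past the threshold (adjusted p = 0.0463 and 0.0352), and both turned to negative values, -0.15 and -0.16, with total-count scaling.

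A ratio of both forms within 1 library does not depend on the scaling. Cox6a2 stood at 0.158 to 0.217 times the level of Cox6a1 per kb of transcript in WT and at 0.708 to 0.836 times in Dab2-cKO, and the log2 ratio of their counts differed by 2.10. Cox8b stood at 0.0295 to 0.0432 times the level of Cox8a per kb in WT and at 0.105 to 0.154 times in Dab2-cKO, a difference in log2 ratio of 1.90. For Cox7a1 over Cox7a2 the ratios per kb were 0.305 to 0.367 in WT and 0.620 to 1.10 in Dab2-cKO, a difference of 1.16. Of the 11 isoform ratios compared, 6 did not overlap between the groups. Among all genes taken singly, Dab2-cKO lay wholly above WT for 20.6% and wholly below for 17.7%, and no such share was computed for ratios. Not all of the 6 ratios rose. Cox6b2 over Cox6b1 was lower in Dab2-cKO (-1.27, on Cox6b2 counts of 5, 13 and 16), and Atp5g1 over Atp5g2 was higher by only 0.22. With 3 libraries against 3 the exact 2-sided permutation test cannot go below p = 0.10, which each of these 6 reached, and adjusted over the 11 ratios that value was 0.183, so none passed.

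**Figure D3:**
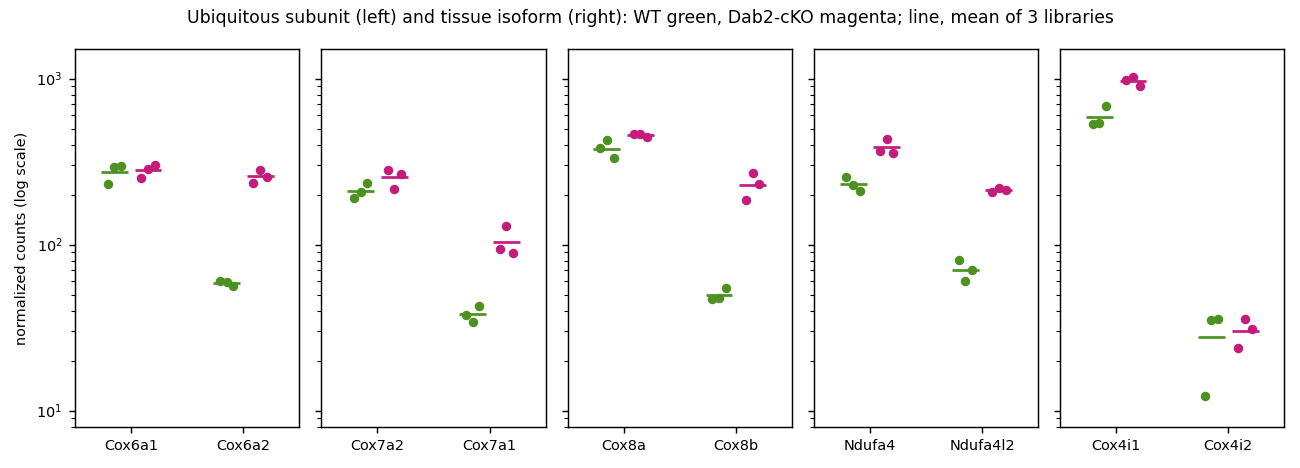
Normalized counts (log scale) of 5 widely expressed subunits, each beside its tissue isoform or relative, in the 3 WT (green) and 3 Dab2-cKO (magenta) libraries, with the group mean as a line. Cox6a2, Cox7a1, Cox8b and Ndufa4l2 lie higher in every Dab2-cKO library, while Cox6a1 and Cox4i2 overlap between the groups.

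The testis and lung forms had low counts. Cox6b2 had 22.3, 19.0 and 15.4 normalized counts in WT and 4.77, 14.96 and 17.7 in Dab2-cKO, and its log2 fold change of -0.61 ± 0.46 was the lowest among all members but was not called (adjusted p = 0.382) and ranged from -0.98 to -0.22 with 1 library left out. Cox8c had 5.42 to 11.1 in WT and 8.05 to 13.4 in Dab2-cKO, and Cox7b2 had 10.8 to 23.4 and 11.04 to 26.5, so both overlapped. Cox7b2 and Atp5s, at 8.18 and 11.5 normalized counts per kb in WT, were the 2 members below the 95th percentile of 1970 chemosensory receptor genes, taken as a measure of background (15.3 per kb). Germ cell markers were also low, with 4 of 11 kept and none called. Cox4i2, the lung form that is also known to respond to low oxygen, had 12.2, 35.2 and 35.9 in WT and 23.8, 35.7 and 30.9 in Dab2-cKO (0.08 ± 0.33, adjusted p = 0.906). A sign cannot be given for it, since leaving out 1 library at a time moved its value between -0.24 and 0.31 and total-count scaling gave -0.33. Its partner Cox4i1, in contrast, went from 532, 543 and 689 to 977, 1026 and 907 (0.72 ± 0.08, adjusted p = 1.79e-11).

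Among the other widely expressed subunits of complex IV, Cox7b had the largest change, from 557, 623 and 606 normalized counts to 1247, 1171 and 1212 (1.02 ± 0.08, adjusted p = 3.07e-19). The group ranges were far apart. Cox6c had the highest level per kb of all members, 3538 in WT and 6204 in Dab2-cKO, with 1638, 1955 and 1746 normalized counts in WT and 3158, 3146 and 3058 in Dab2-cKO (0.81 ± 0.07, adjusted p = 7.54e-16). Its 2 near-identical copies elsewhere in the genome leave the source of part of its reads uncertain. Cox5b, which carries a zinc ion, went from 577, 744 and 634 to 1022, 1065 and 1164 (0.73 ± 0.08, adjusted p = 3.69e-12), and it too has 2 such copies. Cox6b1, the partner of the testis form Cox6b2, rose by 0.53 ± 0.10 (adjusted p = 1.05e-05). Cox7a2l, a relative of the 7a subunits that joins complexes III and IV into supercomplexes, had 346, 416 and 360 in WT and 603, 581 and 530 in Dab2-cKO (0.61 ± 0.09, adjusted p = 5.86e-08).

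Ndufa4, named after complex I but since placed in complex IV, went from 256, 230 and 212 normalized counts in WT to 369, 433 and 356 in Dab2-cKO (0.73 ± 0.11, adjusted p = 3.91e-08). Its relative Ndufa4l2, which is known to be induced by low oxygen through HIF-1 and is expressed in pericytes and smooth muscle (GRCm39 chr10:127350818-127353038, plus strand), had 81.3, 60.5 and 70.1 in WT and 207, 221 and 213 in Dab2-cKO (1.603 ± 0.15, adjusted p = 1.96e-14). The groups were widely separated. Shmt2 on the other strand overlaps 63.3% of its exon bases and changed in the other direction (-0.50, adjusted p = 0.000313). Ndufa4l2 stood at 0.144 to 0.181 times the level of Ndufa4 per kb in WT and at 0.279 to 0.327 times in Dab2-cKO. The 10 smooth muscle and pericyte markers summed to 4308 to 5012 in WT and 15949 to 16101 in Dab2-cKO (8 of 10 higher). Of 12 genes known to respond to or control the response to low oxygen, 4 were higher and 1 lower with a median of 0.09 (-0.05 with upper-quartile scaling, -0.33 with total-count scaling and 0.12 to 0.27 with 1 library left out), from Bnip3, a mitophagy receptor, at 1.90 ± 0.12 to Egln3, an oxygen-sensing prolyl hydroxylase, at -0.48 ± 0.14, whose call was lost without WT replicate 2 (adjusted p = 0.0701). The part of either list in the level of Ndufa4l2 was not tested.

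Complex V had 14 of 16 subunits higher, with the lowest median of the 5 complexes, 0.48 (0.06 with total-count scaling, where 3 were higher and 2 lower). The 5 subunits of the catalytic F1 head were all higher but by little (median 0.30), and their median turned to -0.13 with total-count scaling. The 7 subunits of the stalks and the membrane part were also all higher (median 0.58, or 0.15 with total-count scaling). Atp5b, the catalytic beta subunit and the most abundant of the complex per kb, had 2742, 3001 and 2702 normalized counts in WT and 3127, 3211 and 3248 in Dab2-cKO. The ranges were close but did not overlap, and the rise of 0.18 ± 0.07 (adjusted p = 0.0383) turned to a call in the other direction, -0.24, with total-count scaling. Atp5a1, the alpha subunit, had 2747, 3434 and 3197 in WT and 3830, 3782 and 3780 in Dab2-cKO (0.28 ± 0.07, adjusted p = 0.00119, and -0.15 with total-count scaling). At the other end stood Atp5k, subunit e of the membrane part that takes part in dimer formation, with 263, 399 and 279 in WT and 579, 580 and 598 in Dab2-cKO (0.90 ± 0.10, adjusted p = 1.96e-11). Its promoter is printed above, with the NRF1 match from 50 to 41 bases before the start. Factor B, Atp5s, was not called (0.02 ± 0.32).

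Subunit c, which forms the rotating ring in the membrane, is encoded by 3 genes whose mature proteins are identical. Atp5g3 went from 284, 347 and 349 normalized counts to 435, 484 and 461 (0.49 ± 0.10, adjusted p = 2.99e-05) and Atp5g1 from 178, 207 and 180 to 239, 275 and 275 (0.48 ± 0.12, adjusted p = 0.000847). Atp5g2 went from 165, 197 and 162 to 201, 237 and 192, overlapping between the groups (0.26 ± 0.13, adjusted p = 0.130), and turned to -0.16 with total-count scaling. Per kb, Atp5g1 stood at 1.25 to 1.33 times Atp5g2 in WT and at 1.39 to 1.71 times in Dab2-cKO, while its ratio to Atp5g3 overlapped (exact permutation p = 0.90).

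The share of each complex in the summed counts of the members does not depend on the scaling. Complex V took 36.9% to 37.8% in WT and 33.3% to 33.5% in Dab2-cKO, and complex IV took 17.0% to 17.6% and 19.4% to 19.8%. These were the 2 complexes with the widest gaps between the groups. Complex I took 27.9% to 28.5% and 28.9% to 29.2%, complex II 5.66% to 5.85% and 5.37% to 5.56%, and complex III 10.3% to 10.9% and 10.9% to 11.7%, with the group ranges nearly touching. Ndufa4 and Ndufa4l2 were summed apart, at 0.802% to 1.08% and 1.16% to 1.32%. Complex IV includes its muscle forms. The members without these forms and Ndufa4l2 took 99.3% to 99.4% in WT and 98.2% to 98.5% in Dab2-cKO. All shares add up to a fixed total, so they do not move independently. Across the 83 members, the log2 fold change had a correlation of -0.12 (Pearson) and -0.18 (Spearman) with the log2 transcript length and of -0.07 and -0.03 with the log2 level in WT. This describes members of the same 6 libraries, which are not independent.

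**Figure D4:**
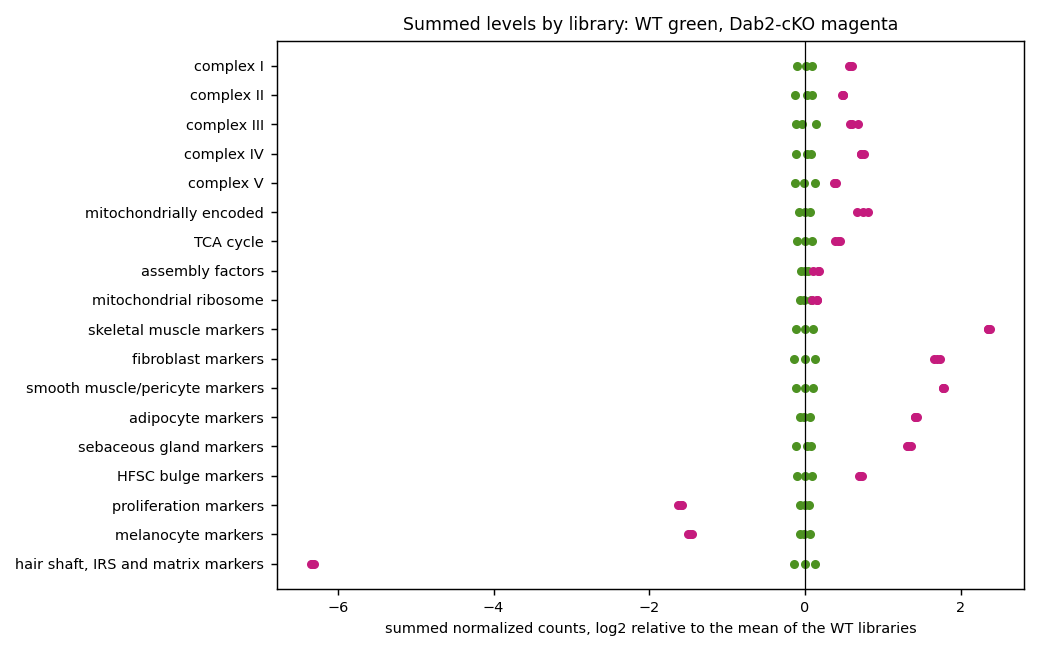
Summed normalized counts of complexes I to V, of related mitochondrial gene lists and of cell type markers in each library, as log2 relative to the mean of the WT libraries (WT green, Dab2-cKO magenta). The complexes lie between the marker lists that were higher in Dab2-cKO, such as skeletal muscle, and those that were lower, such as hair shaft and proliferation; TMM scaling was used, and total-count scaling shifts all Dab2-cKO points down alike.

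Other mitochondrial genes did not all follow the subunits. All genes with symbols beginning mt-, not only those that encode proteins, took 13.0% to 14.4% of all counts in WT and 19.1% to 20.3% in Dab2-cKO. The 13 that encode subunits made up a small part of this share. They summed to 69218 to 76519 normalized counts in WT and 115591 to 128139 in Dab2-cKO. These partners of the nuclear-encoded subunits in complexes I, III, IV and V included 8 that were higher of 10 kept (median 0.72, or 0.29 with total-count scaling). The largest rise was that of mt-Co2 (0.95 ± 0.10), on only 227 to 269 normalized counts in WT and 478 to 520 in Dab2-cKO. The far more abundant mt-Co1 had 20316 to 21961 and 37401 to 41244 (0.89 ± 0.07). Near-identical copies elsewhere in the genome were searched for the nuclear-encoded members only, not for these genes. Of 19 further genes of electron transfer and ubiquinone synthesis, 10 were higher and none lower (median 0.43, or 0.00137 with 3 higher and 7 lower with total-count scaling). Coq8a, which serves ubiquinone synthesis, rose most, from 247, 230 and 224 normalized counts to 688, 686 and 624 (1.51 ± 0.09, adjusted p = 5.91e-23). Cycs, cytochrome c, rose by 0.63 ± 0.08 (adjusted p = 1.04e-09), while Cyc1, the cytochrome c1 subunit of complex III, was not called (0.14 ± 0.10, adjusted p = 0.365, and -0.29 with total-count scaling). In the citric acid cycle with pyruvate dehydrogenase, 14 of 18 genes were higher and none lower (median 0.44, or 0.00910 with 3 higher and 3 lower with total-count scaling), led by Idh2, the mitochondrial NADP-dependent isocitrate dehydrogenase (1.08 ± 0.09). Citrate synthase, Cs, was not called (0.08 ± 0.07). The count table lists 4 kept genes under other symbols whose current symbols meet the rule. Of these, 3 were higher, namely Usmg5 (0.71 ± 0.10), AC121965.1 (0.66 ± 0.13) and 2010107E04Rik (0.58 ± 0.08). Atpif1, the inhibitor of ATP synthase and not a subunit, was not called (0.34 ± 0.14).

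The assembly factors and regulators moved less than the subunits. Of 46 assembly factors kept, 14 were higher and 1 lower (median 0.20, or -0.23 with 3 higher and 18 lower with total-count scaling), from Uqcc3, a complex III factor (0.96 ± 0.18), to Lrpprc, which stabilises mitochondrial mRNA (-0.42 ± 0.08). Of 78 proteins of the mitochondrial ribosome, 15 were higher and 4 lower (median 0.13, or -0.30 with 2 higher and 35 lower with total-count scaling and 9 higher and 11 lower with upper-quartile scaling), with Mrpl42 at 0.93 ± 0.10 and Mrpl19 at -0.63 ± 0.16. Of 22 regulators of mitochondrial biogenesis, 2 were higher and 4 lower (median 0.02, or -0.41 with 0 higher and 12 lower with total-count scaling). Ppargc1a, the coactivator PGC-1α, had 93.5, 99.3 and 103 normalized counts in WT and 147, 152 and 110 in Dab2-cKO (0.46 ± 0.16, adjusted p = 0.0210), and Ppara rose by 0.48 ± 0.18 (adjusted p = 0.0310). These 2 calls were lost under several alternatives. Pprc1, another member of the coactivator family, was lower, from 430, 511 and 555 to 355, 293 and 343 (-0.59 ± 0.10, adjusted p = 6.98e-07). Nrf1, Tfam, the mitochondrial transcription factor A, and Esrra, an estrogen-related receptor, were not called (-0.21 ± 0.10, 0.04 ± 0.11 and 0.25 ± 0.15), and the latter pair turned to -0.39 and -0.18 with total-count scaling. Nrf1 was called lower without Dab2-cKO replicate 2 (-0.29), with the filter raised to a mean count of 50 (-0.30), with upper-quartile scaling (-0.35) and with total-count scaling (-0.64). The background for these lists is the share of all genes, 16.8% called higher and 11.5% lower. Among genes with a mean count of at least 50 it is 30.1% and 27.4%. Beside this second background, the shares of assembly factors and hypoxia genes called higher were near it. Those of ribosomal proteins and regulators were below it.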

How the data were processed

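Total RNA of sorted HFSCs was sequenced as 3 libraries per genotype. The authors trimmed the reads (fastp 0.23.4), aligned them to GRCm39 (HISAT2 2.2.1) and counted them per gene (featureCounts 2.0.6), per the submitters' processing notes, and deposited counts without normalization. Whether counting used strand, multiply aligned reads or molecular identifiers, and which annotation release, is not given in the sources used here. A deposited table of the authors' own DESeq2 comparison was not used. The count columns are named WT and FL-FL, and FL-FL was taken as Dab2-cKO because the series title equates them, although both genotypes carry floxed alleles.

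The counts were compared in R 4.3.3 by the quasi-likelihood test of edgeR 4.0.16 (robust, TMM, default expression filter, Benjamini-Hochberg adjustment over all 32149 genes). Errors of log2 fold changes are standard errors, and a normalized count is a count over the library's TMM-adjusted total relative to the mean of such totals. The fit was tested on simulated data. Isoform ratios used counts plus 0.5 and an exact 2-sided permutation test. Levels per kb used the canonical transcript of GENCODE, which may differ from the annotation the authors counted. Coordinates and exon overlaps came from GENCODE on GRCm39 by gene ID (56323 of 56941 matched), near-identical copies from BLAST 2.17.0 against the genome, and promoters from RefSeq.

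Total counts ranged from 7040032 to 11696457, so a count of 0 allows a share of up to 2.56e-05% to 4.26e-05% (3 counts, counting error only). The labels call the replicates biological. No 2 libraries of a group agreed within sampling noise (chi-square per degree of freedom 3.54 to 11.7). Alternatives were DESeq2 1.42.0, other scalings and filters, a length correction, a replicate block, a test against 1.5-fold and each library left out. Named were the 6 largest rises with a mean of at least 100 normalized counts and no overlap, the isoforms and their partners, catalytic subunits, the highest level per kb in each complex, and of each related list the largest rise and fall with Ppargc1a, Nrf1, Tfam, Esrra, Cyc1 and Cycs. 1 gene that this rule names is not reported here. Other genes were named after their values were seen. The members and lists were chosen with earlier results of these data known.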

Additional observations from a re-analysis of the deposited data

How the results depend on the processing

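Each group had 3 libraries, and the replicate numbers paired them at most weakly. Same-numbered deviations correlated by 0.023, 0.012 and 0.0076, and differently numbered ones by -0.018 to 0.0055. The replicate block gave 69 subunits higher and none lower, a median of 0.58 and 30 of complex I higher. It also gave 2 assembly factors lower in place of 1, and it changed no other count by over 1.5 times. Cox7b2 turned to -0.010 with the block. Leaving out 1 library at a time gave 62 to 70 subunits higher and medians of 0.53 to 0.62. DESeq2 gave 65.

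Total-count scaling gave 30 subunits higher and 8 lower, a median of 0.15, and 13, 1, 4, 7 and 3 higher in complexes I to V. It left 3 assembly factors, 0 biogenesis regulators, 2 mitochondrial ribosomal proteins, 3 electron transfer genes and 3 citric acid cycle genes higher, and turned the medians of assembly factors (-0.23), regulators (-0.41), ribosomal proteins (-0.30) and hypoxia genes (-0.33). It also turned Atp5a1 (-0.15), Atp5b (-0.24), Atp5g2 (-0.16), Cox4i2 (-0.33), Cox6a1 (-0.41), Cox7a2 (-0.16), Cox7b2 (-0.41), Cox8a (-0.15), Ndufs1 (-0.24), Ndufv1 (-0.29), Sdhb (-0.18), Tfam (-0.39), Esrra (-0.18) and Cyc1 (-0.29). Upper-quartile scaling gave a median of 0.43 for the subunits, 0 regulators and 9 ribosomal proteins higher, and turned the medians of hypoxia genes (-0.0487), regulators (-0.12) and ribosomal proteins (-0.0102), with Cox4i2 (-0.0561), Cox6a1 (-0.13), Cox7b2 (-0.13), Ndufv1 (-0.00339), Tfam (-0.10) and Cyc1 (-0.00505). Genes lower with total-count and upper-quartile scaling were 18 and 6 assembly factors, 12 and 8 regulators, 35 and 11 ribosomal proteins, 7 and 1 electron transfer genes, 3 and 1 citric acid cycle genes and 5 and 1 hypoxia genes. All genes moved alike under these scalings.

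The test against 1.5-fold, a stricter criterion by construction, called 17 subunits (8, 0, 2, 5 and 1 in complexes I to V), 0 assembly factors, 0 regulators, 1 ribosomal protein, 5 mitochondrially encoded genes, 2 electron transfer genes and 2 citric acid cycle genes. DESeq2 left 0 regulators higher. Without a low-count filter 1 regulator was higher, their median was -0.0150, Cox6a1 stood at -0.0174 and Cox7b2 at -0.0134. With a mean count of at least 50 they stood at 1 regulator, a median of -0.0893, Cox6a1 at -0.0709 and Tfam at -0.0462. The length correction gave 1 regulator, a median of -0.0318, Cox7b2 at -0.00523 and Tfam at -0.0134. TMM without mitochondrial, rRNA and top 100 genes gave a regulator median of -0.00978, Cox6a1 at -0.0125 and Cox7b2 at -0.00932.

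Single libraries decided some values. Assembly factors higher ranged from 8 to 13 with 1 library left out, 8 without Dab2-cKO replicate 3, and regulators higher from 0 to 2 with a median of -0.0629 to 0.0456. The leave-one-out range was -0.24 to 0.31 for Cox4i2, -0.0820 to 0.0851 for Cox6a1, -0.435 to 0.30 for Cox7b2 and -0.0316 to 0.0913 for Tfam. The log2 ratio of Cox8c to Cox8a ranged from -0.14 to 0.53 and that of Atp5g1 to Atp5g3 from -0.10 to 0.0398. The cause of these changes was not tested. The hypoxia median was 0.12 to 0.27 and Cox6b2 was -0.98 to -0.22 with 1 library left out. Calls were gained by Cox7a2 without WT replicate 3 or Dab2-cKO replicate 2 and with the length correction, by Ndufs1 without WT replicate 2 and by Atp5g2 with the length correction. The calls of Cox8a, Sdhb and Atp5b were each lost without some single libraries, DESeq2 lost those of Cox8a and Sdhb, and a mean count of at least 50 lost all 3. None of the 6 members with a mean under 50 counts was called.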
